A study of Mus musculus with 401 samples.

Results

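Gdf9, Bmp15, Bmp6 and Fgf8 encode growth factors that the mouse oocyte secretes to the cumulus cells around it. They were taken by their Ensembl identifiers from both count tables, which hold 43633 gene identifiers in all, and all 4 genes were found in each table. Total RNA of single oocytes at the germinal vesicle stage, and of the pool of cumulus cells around each of them, had been sequenced by RamDA-seq, a full-length method with random priming. All mice were female B6D2F1 hybrids (C57BL/6 x DBA/2), and a pair of experiments is described, called the first and the second set. In the first set, all mice were hyperovulated by injection and were young (2 months, 2 mouse labels, 16 oocytes), middle (9 months, 4 labels, 14 oocytes), old (14 months, 2 labels, 16 oocytes) or calorie restricted (CR, 9 months, 3 labels, 27 oocytes). The CR mice were fed a reduced amount from adulthood on and housed singly, and the other mice were fed ad libitum. One of the old labels joins 2 mice. In the second set, all mice were fed ad libitum. They were hyperovulated at 2 months (5 mice, 24 oocytes), 4 months (8 mice, 39 oocytes), 9 months (4 mice, 16 oocytes) or 14 months (5 mice, 16 oocytes), and a further group of 2 months was not hyperovulated (8 mice, 32 oocytes). Hyperovulation was by equine chorionic gonadotropin or CARD HyperOva, and the agent each mouse received is not given in the labels.

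GDF9 and BMP15 are paralogous members of the TGF-beta family that act on granulosa and cumulus cells, as homodimers or together as a heterodimer. They bind the type II receptor BMPR2 and the type I receptors TGFBR1 (also called ALK5) or BMPR1B (ALK6), and keep cumulus cells proliferating, metabolically active and able to expand. BMP6 is a more typical bone morphogenetic protein that signals through BMP receptors to SMAD1, SMAD5 and SMAD9. FGF8 is a fibroblast growth factor which, together with BMP15, raises glycolysis in cumulus cells, and it acts on FGF receptors. Loss of Gdf9 arrests mouse follicles at an early stage, whereas loss of Bmp15 alone reduces fertility mildly.

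Gdf9 lies on chromosome 11 (GRCm38 chr11:53431023-53437904, plus strand), Bmp15 on the X chromosome (chrX:6314107-6320721, minus strand), Bmp6 on chromosome 13 (chr13:38345107-38500302, plus strand) and Fgf8 on chromosome 19 (chr19:45736798-45742915, minus strand). A short stretch of the last coding exon shows what sets Gdf9 and Bmp15 apart from Bmp6. Most TGF-beta family ligands carry a cysteine at this place that bonds the 2 subunits of a dimer covalently. The codon at this place is in capitals, and each window has 45 bases on GRCm38, written along the coding strand.
Gdf9, exon 2 of 2, chr11:53437413-53437457, plus strand: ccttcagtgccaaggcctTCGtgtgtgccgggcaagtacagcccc
Bmp15, exon 2 of 2, chrX:6315717-6315761, minus strand: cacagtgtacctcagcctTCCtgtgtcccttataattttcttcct
Bmp6, exon 7 of 7, chr13:38498937-38498981, plus strand: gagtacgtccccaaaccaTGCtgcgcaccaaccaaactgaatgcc
The codon encodes serine in Gdf9 (codon 405 of 441) and in Bmp15 (codon 356 of 392), and cysteine in Bmp6 (codon 474 of 510). Of Gdf9 and Bmp15, whose levels varied together between oocytes, the RefSeq promoter table used here held an entry for Bmp15. The 250 bases before its start, chrX:6320725-6320974 on GRCm38.p6, minus strand, are given with a TAATTA, the core that homeodomain proteins such as NOBOX can bind, and an E-box match CANNTG, the core that FIGLA and other basic helix-loop-helix factors can bind, in capitals.
Bmp15 promoter: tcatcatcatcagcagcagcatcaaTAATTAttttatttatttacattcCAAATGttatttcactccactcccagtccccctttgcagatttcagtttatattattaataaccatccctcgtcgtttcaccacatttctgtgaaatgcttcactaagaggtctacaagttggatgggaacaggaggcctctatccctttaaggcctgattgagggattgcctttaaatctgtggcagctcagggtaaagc
TAATTA began 225 bases and CANNTG 201 bases upstream of the start. With both strands searched, TAATTA was found in 4.84% and CANNTG in 66.2% of 32851 promoters of this length, so that the second match says little by itself. TAATTG, which was searched as well and is found in 7.17% of promoters, did not occur in this window.

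Totals per oocyte library ranged from 559305 to 4536690 counts and per cumulus library from 510029 to 2501005 counts. A complex of a middle mouse was left out because its oocyte library resembled cumulus libraries, which left 200 oocyte and 199 cumulus libraries. The cumulus marker list summed to 0.102% to 21.7% of its usual cumulus level in the oocyte libraries, with the highest value in an old oocyte. The oocyte marker list stayed below 1% of its usual oocyte level in the cumulus libraries other than 1 young (1.73%) and 1 CR library (2.79%). Levels are given as CPM, the counts of a gene scaled to a common library total, and, where genes are compared with each other, as RPKM, in which the level is also divided by gene length. They are shares of a library, and in the cumulus pools fewer cells of a type and less RNA per cell cannot be told apart.

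Gdf9 and Bmp15 were among the most abundant mRNAs of the oocyte. By mean CPM Gdf9 ranked 5th of 41092 genes in the first set and 3rd of 42349 in the second, and Bmp15 ranked 9th and 5th. Gdf9 ranged from 2789 to 6413 CPM over the 127 oocytes of the second set. Bmp15 ranged from 3042 to 5585 CPM in the same oocytes, so that both were high in every one of them. Bmp6 ranked 1117th and 841st and Fgf8 3739th and 2900th. Per length, the median over the second set was 2331 RPKM for Gdf9, 1428 RPKM for Bmp15, 63.9 RPKM for Bmp6 and 57.0 RPKM for Fgf8. The ranges of Bmp6 and Fgf8 overlapped broadly, and Gdf9 and Bmp15 both stood far above them.

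**Figure D1:**
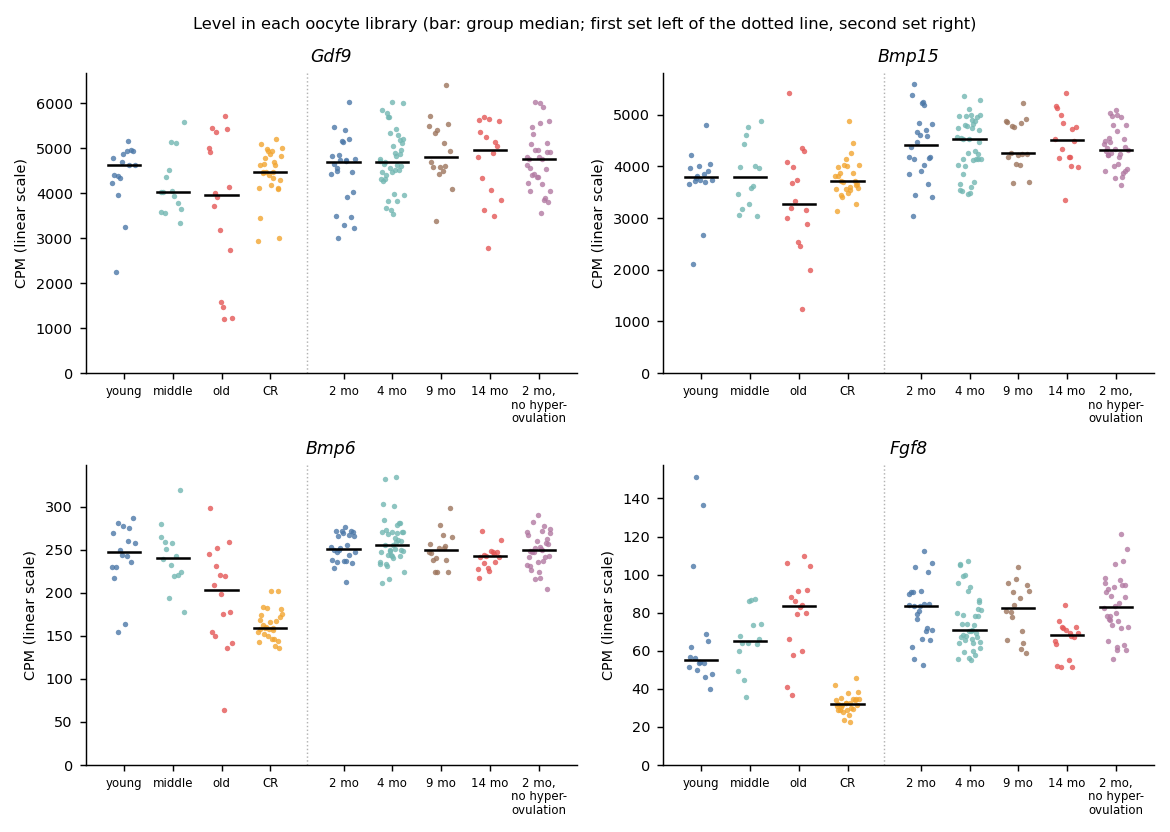
Level of each gene in every oocyte library, in CPM on a linear axis, by group. Points are single oocytes and bars are group medians. The CR group has the lowest median for Bmp6 (159 CPM) and Fgf8 (31.8 CPM), and 4 old oocytes sit below 1600 CPM for Gdf9.

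The members differed in how much they varied between oocytes of the same mouse label. In the second set the standard deviation within mice was 0.12 on the log2 CPM scale for Bmp6, 0.18 for Bmp15, 0.22 for Gdf9 and 0.26 for Fgf8 (127 oocytes, 30 mice). Fgf8, the least abundant member with a median of 161 counts per oocyte, varied most there, whereas in the first set Gdf9 did (0.42, against 0.39 for Fgf8). The values of the first set are within 11 mouse labels. The old label that joins 2 mice is among them, and 4 of its 11 oocytes lay below 1600 CPM of Gdf9. In the second set Bmp6, with a median of 528 counts, varied less than Gdf9 and Bmp15, whose medians were 9797 and 9116 counts.

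No member was called in the oocytes of the second set when 4, 9 and 14 months and the group without hyperovulation were each compared with 2 months. Gdf9 had a lowest, median and highest level of 3015, 4693 and 6026 CPM at 2 months, 3538, 4703 and 6027 CPM at 4 months, 3379, 4811 and 6413 CPM at 9 months and 2789, 4974 and 5698 CPM at 14 months. Without hyperovulation, at 2 months, these values were 3555, 4758 and 6022 CPM. The groups overlapped almost fully. Bmp15 had group medians of 4254 to 4520 CPM over the same groups, and Bmp6 of 242 to 256 CPM. Compared with 2 months, the estimates for 4 months, 9 months and no hyperovulation lay between -0.08 and 0.10 on the log2 scale for all 4 members, and edgeR's quasi-likelihood test on counts summed per mouse called none of them (adjusted p of at least 0.772). Of all genes tested 0.0% were called at 4 months and without hyperovulation (1243 and 1064 at an unadjusted p under 0.05, with 2 and 0 called by DESeq2), and 0.0784% at 9 months. At 14 months the estimates were 0.06 (95% interval -0.09 to 0.22) for Gdf9, 0.04 (-0.09 to 0.16) for Bmp15 and -0.06 (-0.17 to 0.05) for Bmp6.

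Fgf8 was the member with the largest age estimate in the second set. Its lowest, median and highest levels were 52.4, 83.7 and 113 CPM at 2 months. At 14 months they were 51.4, 68.6 and 84.2 CPM. At 4 and 9 months the medians were 71.2 and 82.4 CPM, and without hyperovulation 83.1 CPM. Mouse means ran from 64.0 to 93.3 CPM at 2 months and from 61.4 to 71.97 CPM at 14 months and so overlapped. The difference between 14 and 2 months was -0.29 (SE 0.088; 5 against 5 mice) with an adjusted p of 0.24 by edgeR over all genes, where 0.177% of 24326 genes were called. With single oocytes as units in place of mice it was -0.30 with an adjusted p of 0.048 by edgeR, a setting in which oocytes of 1 mouse count as independent and 0.932% of all genes were called. The cumulus marker level in the oocyte libraries was also higher at 14 months (median 0.679% against 0.325%), and with single oocytes as units and this level as a covariate the Fgf8 estimate was -0.22 (adjusted p 0.441 by edgeR). In the first set the estimate for old against young oocytes was 0.25, with an adjusted p of 0.759 by edgeR.

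Old oocytes of the first set were heterogeneous for Gdf9. The lowest, median and highest levels were 2259, 4630 and 5157 CPM in young, 3345, 4026 and 5592 CPM in middle and 1203, 3955 and 5717 CPM in old oocytes. The coefficient of variation was 44.0% in old against 16.8% in young oocytes. The spread came from the label that joins 2 mice, where 4 of 11 oocytes held 1203, 1219, 1463 and 1583 CPM. The 5 oocytes of the other old label held 3192 to 5717 CPM, close to the young group. In 3 of those 4 low oocytes Bmp15 was less reduced, with 1997, 2459 and 2534 CPM, or 1.60 to 1.68 times Gdf9. In the remaining one both were alike, with 1203 CPM of Gdf9 and 1235 CPM of Bmp15. The 4 oocytes also carried 4.36% to 15.1% of the cumulus marker level and 1.36% to 6.75% mitochondrial counts, against medians of 3.49% and 0.988% over all old oocytes, and the part of these in the low levels was not tested.

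Bmp15 and Bmp6 also had the higher coefficient of variation in old oocytes (30.5% against 16.05% and 29.8% against 15.9%), whereas that of Fgf8 was 27.4% in old and 47.7% in young oocytes. Bmp15 had a lowest, median and highest level of 2118, 3801 and 4801 CPM in young and 1235, 3268 and 5417 CPM in old oocytes. Bmp6 had 154, 247 and 287 CPM in young and 63.7, 203 and 298 CPM in old oocytes. Fgf8 had 39.9, 55.3 and 151 CPM in young and 36.7, 83.4 and 109.9 CPM in old oocytes. The 3 young oocytes highest in Fgf8, with 151, 137 and 105 CPM, were all of mouse Young2 and carried 5.99%, 12.6% and 2.48% of the cumulus marker level, against a young median of 0.760%, and the part of this was not tested.

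Between old and young oocytes no member was called. The estimates were -0.26 (SE 0.303) for Gdf9, -0.24 (SE 0.274) for Bmp15, -0.34 (SE 0.264) for Bmp6 and 0.25 (SE 0.231) for Fgf8, with adjusted p of 0.696 to 0.808 by edgeR on 2 against 2 labels. Of 24849 genes 0.0% were called, while 2257 had an unadjusted p under 0.05, and DESeq2 called 27. Without the second old label (Old3), 3 members were called lower in old oocytes, namely Gdf9 (-0.65), Bmp15 (-0.44) and Bmp6 (-0.73, adjusted p 6.68e-05 by edgeR), with the lone remaining old label assumed to vary like the young ones and 18.7% of all genes called. Without the label that joins 2 mice, the Gdf9 estimate was 0.04. With Old3 left out the calls of members thus changed from 0 to 3, and with the other old label left out they stayed at 0. Middle oocytes differed from young ones by -0.16 (SE 0.119) for Gdf9, -0.06 for Bmp15, -0.11 for Bmp6 and 0.13 for Fgf8, all with adjusted p of 1 by edgeR. Old and middle oocytes differed by -0.09 for Gdf9, -0.16 for Bmp15, -0.23 for Bmp6 and 0.14 for Fgf8, with adjusted p of at least 0.976 by edgeR. In these comparisons 0.0% of all genes were called by edgeR, with 667 and 765 at an unadjusted p under 0.05.

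Among the comparisons between groups, calls of members were made for calorie restriction alone. Fgf8 had a lowest, median and highest level of 22.6, 31.8 and 45.6 CPM in CR oocytes. In middle oocytes of the same age these were 35.7, 65.1 and 87.3 CPM. Of 27 CR oocytes 23 lay below the lowest middle oocyte, and of 14 middle oocytes 12 lay above the highest CR oocyte. The means of the 3 CR mice were 36.5, 33.03 and 30.7 CPM. Those of the 4 middle mice were 55.9, 69.5, 86.8 and 62.9 CPM, the third of them from 1 oocyte, and the young and old labels lay between 50.4 and 80.2 CPM, so that no other label of the first set reached down to the CR mice. The difference from middle was -1.01 (SE 0.134; 95% interval -1.31 to -0.71; adjusted p 0.00305 by edgeR), or 0.496-fold.

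Bmp6 showed the same direction with a smaller size. It had 136, 159 and 202 CPM (lowest, median and highest) in CR oocytes and 178, 241 and 320 CPM in middle oocytes. The mouse means were 155, 160 and 167 CPM under CR and 253, 219, 220 and 273 CPM in middle mice, without overlap. The difference was -0.56 (SE 0.125; 95% interval -0.84 to -0.29; adjusted p 0.023 by edgeR), or 0.677-fold. Of all 27072 genes tested in this comparison 7.61% were called, 4.07% higher and 3.54% lower in CR, and 2 of the 4 members were among the lower ones.

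Gdf9 and Bmp15 did not follow. Gdf9 had 2940, 4485 and 5213 CPM in CR and 3345, 4026 and 5592 CPM in middle oocytes. Bmp15 had 3134, 3712 and 4881 CPM in CR and 3032, 3795 and 4881 CPM in middle oocytes, nearly the same range. The estimates were 0.09 (95% interval -0.15 to 0.33) for Gdf9 and 0.02 (-0.20 to 0.24) for Bmp15, with adjusted p of 0.684 and 0.93 by edgeR.

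**Figure D2:**
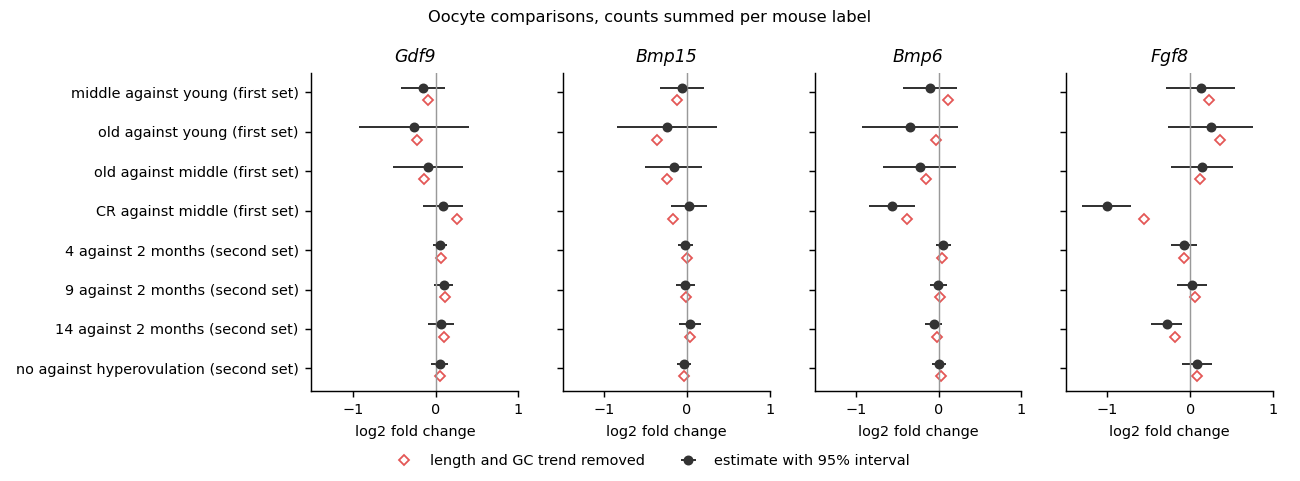
Log2 fold change of each gene in the 8 oocyte comparisons, with the first-named group over the second. Filled points with bars are estimates with 95% intervals from counts summed per mouse label, and open diamonds are the estimates after removal of the trend with gene length and GC content. The CR estimates of Fgf8 (-1.01) and Bmp6 (-0.56) lie farthest from 0, and the diamonds lie nearer to 0 at -0.56 and -0.38.

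Gene composition moved with the CR result. Among genes with at least 5 CPM, the median difference between CR and middle oocytes fell with GC content, from 0.28 for genes under 40% GC through -0.27 at 55 to 60% to -0.40 above 60%. A smaller fall was also seen with age in the first set. It went from 0.22 to -0.26 for old against young and from 0.09 to -0.11 for middle against young oocytes. Fgf8 transcripts have 62.8% GC, Bmp6 57.8%, Gdf9 53.0% and Bmp15 42.5%, so the members that were lower in CR are those of highest GC. With the trend of GC content and length removed, an alternative chosen after the data were seen, the estimates were -0.56 for Fgf8 (adjusted p 0.0687 by edgeR), -0.38 for Bmp6 (0.0593), 0.26 for Gdf9 (0.127) and -0.17 for Bmp15 (0.394), and none of the 4 was called, against 6.5% of all genes. Fgf8 and Bmp6 thus kept their direction and lost the call. CR libraries were also deeper, with a median of 3578882 counts against 2332126 in middle oocytes, and the library groups cannot be told apart from the diet. The cumulus marker level was 0.968% in CR and 1.504% in middle oocytes by median, and with single oocytes as units and this level as a covariate the estimates were -0.99 for Fgf8 and -0.54 for Bmp6, in a fit that takes oocytes of 1 mouse as independent. Fgf8 stayed called whichever of the 7 mice was left out (-1.06 to -0.88), whereas Bmp6 stayed called only without Middle3, with adjusted p of 0.0512 to 0.11 by edgeR without any one of the others. With the complex left out from the start put back, -0.77 for Fgf8 (adjusted p 0.112) and -0.38 for Bmp6 (0.437) were not called by edgeR.

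Gdf9 and Bmp15 varied together from oocyte to oocyte. Pearson's r of their log2 CPM was 0.814 over the 127 oocytes of the second set and 0.845 over the 73 of the first, and it lay between 0.747 and 0.948 within the 5 groups of the second set. Fgf8 went the other way, with r of -0.682 to Bmp15 and -0.521 to Gdf9 in the second set and -0.379 and -0.404 in the first. With the trend of GC content and length removed, r was 0.901 between Gdf9 and Bmp15 and -0.678 between Bmp15 and Fgf8 in the second set. Bmp6 had r of -0.41 to Bmp15, -0.228 to Gdf9 and 0.30 to Fgf8 in the second set, and of 0.269, 0.295 and 0.255 in the first. Within the 4 groups of the first set these ranged from -0.797 to 0.565, from -0.638 to 0.551 and from -0.85 to -0.013, so that the pooled values do not describe the groups. These values describe libraries that share mice and processing, and CPM are shares of 1 total.

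**Figure D3:**
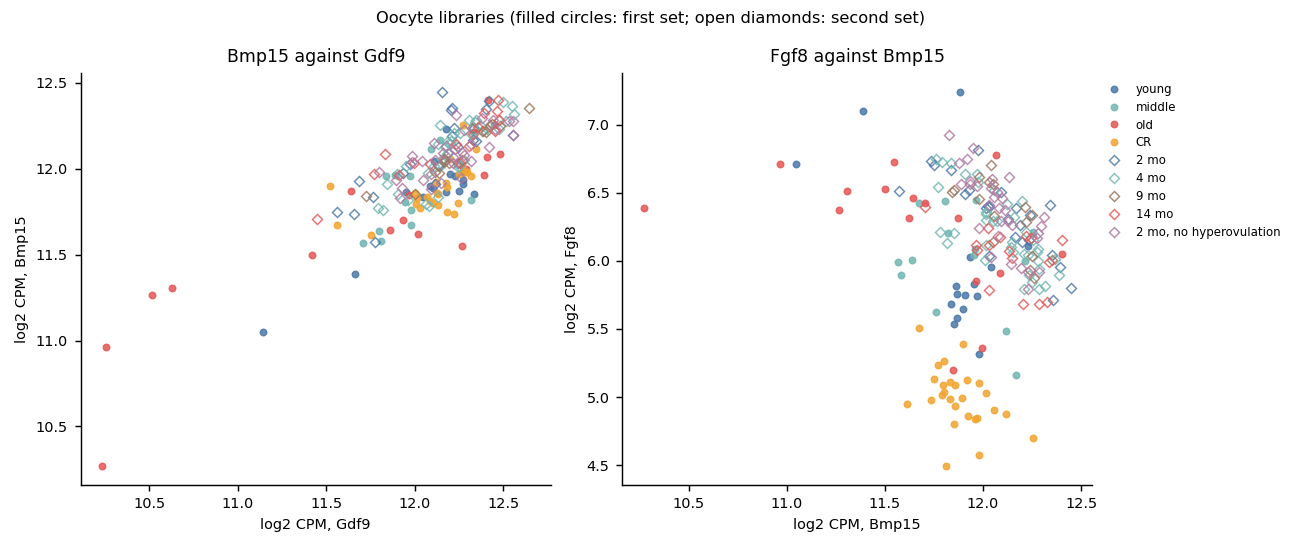
Levels of Bmp15 against Gdf9 (left) and of Fgf8 against Bmp15 (right) in single oocytes, each axis in log2 CPM. Filled circles are oocytes of the first set and open diamonds those of the second, coloured by group. Gdf9 and Bmp15 rise together (r of 0.845 and 0.814), 4 old oocytes lie apart at low Gdf9, and the CR group has the lowest median for Fgf8 (31.8 CPM).

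The ratio of Bmp15 to Gdf9, in CPM, had group medians of 0.835 (CR) to 0.974 (2 months). It ranged from 0.608 to 1.68 in old and from 0.717 to 1.037 in young oocytes. For tests the counts of each gene were summed per mouse label and the log2 ratio of the sums was taken. Exact two-sided permutation tests on these values called none of 8 comparisons (adjusted p of 0.411 to 1). The lowest p was 0.0794, for 9 against 2 months with a difference of -0.12. Old against young could not go below 0.3333. Middle against young and old against middle could not go below 0.0667, so that these 3 comparisons could not have been called. CR against middle could not go below 0.0286, and 9 and 14 against 2 months could not go below 0.0079. With 8 tests adjusted together, these could be called only if other comparisons also had a low p.

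By Pearson's r of log2(CPM + 1) over the oocytes of the second set, among 8769 genes of at least 10 CPM, the genes most like Gdf9 were Calr (0.883, and 0.695 in the first set), Lpin2 (0.841 and 0.692) and Mtmr14 (0.822 and 0.808). Those most like Bmp15 were Zp2, a zona pellucida gene (0.862 and 0.703), Gdf9 itself and Gm10552 (0.806 and 0.332). For Bmp6 they were Gse1 (0.638 and 0.747), Dclk2 (0.589 and 0.791) and Dusp7 (0.575 and 0.844). For Fgf8 they were Siah2 (0.690 and 0.694), Gpn2 (0.676 and 0.780) and Zbed3 (0.676 and 0.878).

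In cumulus cells Bmp6 was the only member with substantial counts. It had a count in all 199 cumulus libraries, with group medians of 35.2 to 62.9 CPM. Over the complexes with both libraries, summed counts gave 252 CPM in oocytes and 57.0 CPM in cumulus cells in the second set, 4.42 times more in the oocyte, and 4.67 times more in the first set. With the mouse as a block, edgeR gave a log2 difference of 2.64 (SE 0.070) in the second and 3.07 (SE 0.145) in the first set, which includes the TMM scaling between cell types of unlike composition. The median over all genes was -0.30 and 0.00 in these fits. Bmp6 shares 224 exon bases at its 3′ end (chr13:38500079-38500302) with Txndc5 on the other strand, and the counting did not use strand. Its levels in the oocyte and in the cumulus cells of the same complex were weakly related (Spearman's rho 0.117 over 127 and 0.320 over 70 complexes, which share mice and, within a set, processing).

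Fgf8 and Bmp15 were at or near 0 in cumulus cells. Fgf8 had 6 counts in 127 cumulus libraries of the second set together, against 20726 in their oocytes, 1417 times more by CPM (exact Poisson 95% interval 651 to 3861). In the first set it had 8 counts, 690 times less by CPM than in oocytes (350 to 1598), and 3 counts without the 2 cumulus libraries high in oocyte markers, a ratio of 1791 (613 to 8687). Bmp15 had 1 count in the second set against 1172179 in oocytes, a ratio of 480779 with a counting interval of 86290 to 18989769. In the first set it had 86 counts, of which 30 remained without those 2 libraries. These intervals cover counting error only.

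**Figure D4:**
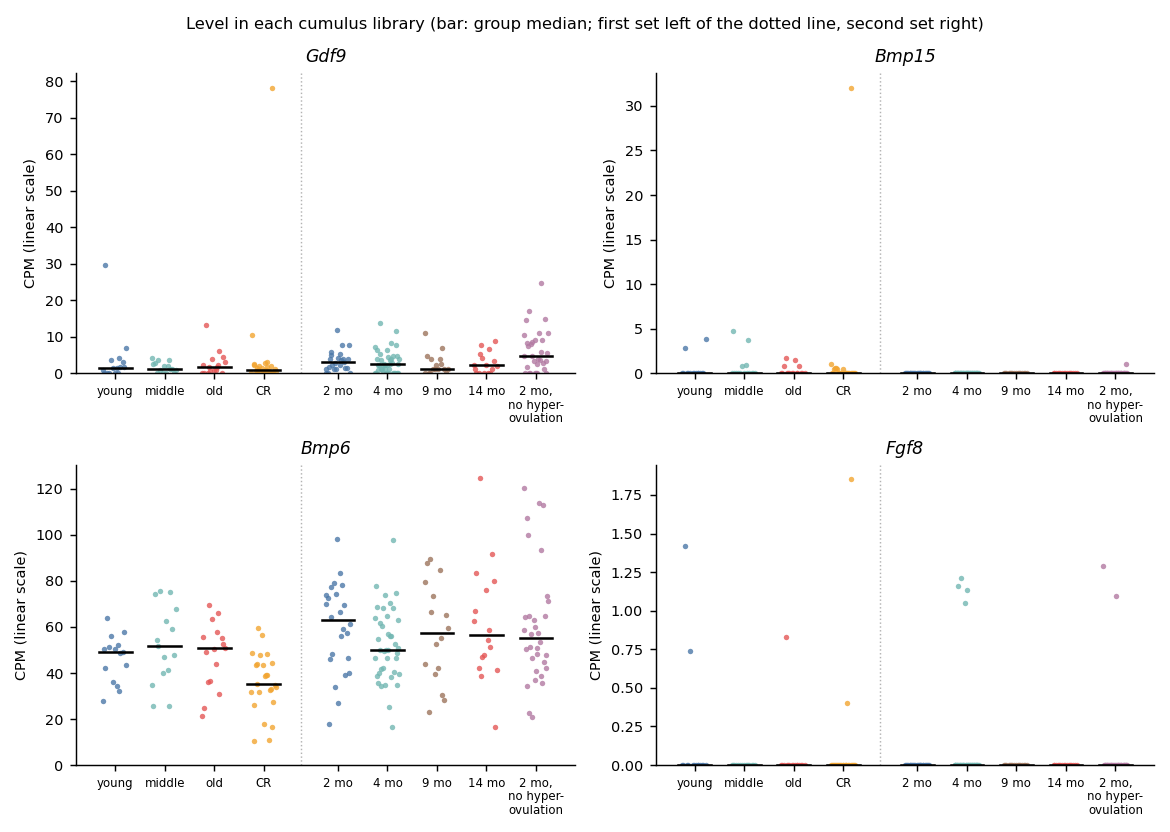
Level of each gene in every cumulus library, in CPM on a linear axis whose range differs between genes, by group. Points are single cumulus pools and bars are group medians. Bmp6 has counts in every library with group medians of 35.2 to 62.9 CPM, Gdf9 is low in most, and Bmp15 and Fgf8 have medians of 0.

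Gdf9 was low but widespread in cumulus cells, unlike Bmp15. In the second set 99 of 128 cumulus libraries held a Gdf9 count, with group medians of 1.15 to 4.70 CPM and 407 counts in all over the complexes with both libraries, 1265 times less by CPM than in oocytes. The single count of Bmp15 was 0.245% of the counts of both genes (exact binomial 95% interval 0.0062% to 1.36%), while Bmp15 made up 48.3% of both in the oocytes of the same complexes. In 82 cumulus libraries of the second set 8 oocyte markers (Zp1, Zp2, Zp3, Oosp1, Nlrp5, Mos, H1f8 and Dppa3) were all at 0. Of these libraries 63 held Gdf9, and the Gdf9 median was 2.99 CPM in them all, against 2.35 CPM in the rest. In the first set the 8 markers were at 0 in 35 of 71 cumulus libraries, of which 22 held Gdf9. There the Gdf9 median was 0.862 CPM in these 35 and 1.75 CPM in the rest. These 8 of the 13 markers were chosen after the values were seen. Of the others, Uchl1, Kit and Tle6 had a count in 100%, 94.5% and 92.1% of the cumulus libraries of complexes with both libraries, Zar1 in 29.1% and Ooep in 14.2%. In the first set Bmp15 made up 19.8% of both genes, and 14.4% (9.95% to 19.9%) without the 2 libraries high in oocyte markers, against 46.4% in oocytes. Uqcrq, a subunit gene of respiratory complex III, starts 191 bases from Gdf9 on the other strand and had a median of 22.9 CPM in cumulus cells of the second set. Whether reads from it were counted for Gdf9 was not tested.

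All 4 members were called higher in oocytes by edgeR with the mouse as a block, in both sets, which is a description, since they had been chosen as factors of the oocyte. Bmp15 of the second set, with a count in 1 of 128 cumulus libraries, passed the filter on low counts through the oocytes alone. Of all genes 77.8% were called in the first and 86.0% in the second set, in either direction, and 40.2% and 39.4% were called higher in oocytes.

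None of the 8 cumulus comparisons called Gdf9 or Bmp6. Among all genes 0.431% were called between old and young mice, 0.159% between 14 and 2 months and 0.0081% between 9 and 2 months. Between middle and young mice, old and middle mice, and 4 and 2 months, 0.0% of all genes were called. In these comparisons 792, 383 and 1789 genes had an unadjusted p under 0.05 by edgeR. Gdf9 was estimated at 0.83 without hyperovulation (SE 0.419; adjusted p 0.414 by edgeR), from a group mean of 3.34 to 6.16 CPM, where 0.863% of 25828 genes were called. Mouse means ran from 1.75 to 13.3 CPM without and from 2.67 to 4.19 CPM with hyperovulation, and 2 mice without hyperovulation stood high with 13.3 and 13.2 CPM. The cumulus marker list had a median of 59.2% without and 102% with hyperovulation, but of 94.4% and 113% in these 2 mice. The oocyte marker list had a median of 0.292% without and 0.386% with hyperovulation, and of 0.466% and 0.391% in these 2 mice. The part of these in the Gdf9 level was not tested. Bmp6 was estimated at 0.01 (SE 0.202). Under CR cumulus Bmp6 was estimated at -0.46 (SE 0.220; adjusted p 0.646 by edgeR), from mouse means of 37.6 to 67.1 CPM in middle to 29.3 to 39.8 CPM in CR mice. None of 26487 genes was called there, with 2118 at an unadjusted p under 0.05 and 186 called by DESeq2. Cumulus Gdf9 was estimated at 0.97 under CR and at -0.12 without the 2 libraries high in oocyte markers, 1 of which is a CR library with 78.3 CPM.

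Of the 14 receptors listed for these ligands, most were found in both cell types. Tgfbr2, Fgfr3 and Fgfr4 had an oocyte median of 0, with a count in 10, 21 and 2 of 127 oocytes of the second set. Over the second set Bmpr2, the type II receptor shared by GDF9 and BMP15, had a median of 140 RPKM in cumulus cells and 18.8 RPKM in oocytes. Tgfbr1, the type I receptor used by GDF9, had 31.9 RPKM in cumulus cells and 6.29 RPKM in oocytes. Both were called lower in oocytes (log2 differences of -2.38 and -1.94, and -1.55 and -0.93 in the first set). Bmpr1b, a type I receptor for BMP15, had 54.0 RPKM in cumulus cells and 44.4 RPKM in oocytes, and Bmpr1a, a type I receptor for BMPs, had 26.97 and 20.4 RPKM. Bmpr1b was called higher in oocytes by edgeR in both sets (0.18 and 0.70), against the order of its RPKM medians, which carry no TMM scaling. FGF receptors were low in both cell types. Fgfr2 had 4.22 RPKM in cumulus cells and 9.22 RPKM in oocytes, and Fgfr1 had 2.38 and 3.33 RPKM. Fgfr3 and Fgfr4 had 0.211 and 1.01 RPKM in cumulus cells and medians of 0 in oocytes. Both were called lower in oocytes by edgeR (-4.87 and -7.11 in the second set, -2.43 and -4.84 in the first). Of 14 receptors tested, 4 were called higher and 7 lower in oocytes in the second set, and 7 and 6 in the first. The median log2 difference was -0.36 and 0.09, beside -0.30 and 0.00 over all genes.

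Most secreted antagonists were higher in cumulus cells. Fst, which encodes the activin and BMP binding protein follistatin, had 274 RPKM in cumulus cells and 0.290 RPKM in oocytes. Grem1, a BMP antagonist gene, had 73.0 RPKM in cumulus cells and 2.97 RPKM in oocytes. Furin, a proprotein convertase gene, had 43.9 RPKM in oocytes and 3.87 RPKM in cumulus cells. Of the 12 antagonists and proteases, 3 were called higher and 9 lower in oocytes in each set. Over all genes 16325 of 35072 were called lower in oocytes in the second set and 12893 of 34308 in the first. Of 8 SMADs 4 were called higher and 4 lower in oocytes in each set. Smad1 and Smad4 were called higher (0.31 and 0.14 in the second set) against the order of their RPKM medians. These medians were 4.14 RPKM in oocytes and 4.86 RPKM in cumulus cells for Smad1, and 29.6 and 37.7 RPKM for Smad4. Smad3, which transduces GDF9 signals, had 92.6 RPKM in oocytes and 15.2 RPKM in cumulus cells. Of 16 response genes 11 were called lower in oocytes in each set, among them Id3, a BMP target (86.4 RPKM in cumulus cells, 1.14 RPKM in oocytes). The FGF-responsive genes listed were split. Spry4, an FGF feedback inhibitor, had 220 RPKM in oocytes and a median of 0 in cumulus cells. Spry1, Etv4 and Etv5 were likewise called higher in oocytes in both sets. Spry2 and Dusp6 were called lower, with 0 and 0.410 RPKM in oocytes and 17.3 and 15.1 RPKM in cumulus cells. Nobox, Lhx8 and Figla, which encode oocyte transcription factors, had 238, 84.5 and 21.1 RPKM in oocytes and medians of 0 in cumulus cells.

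**Figure D5:**
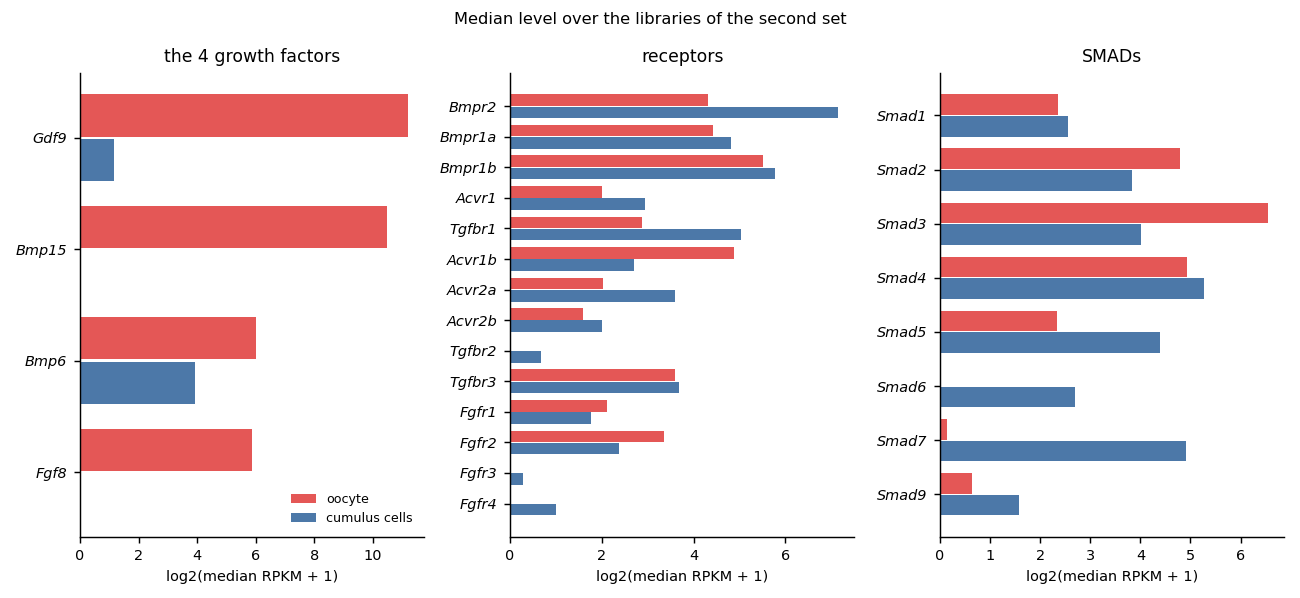
Median level over the libraries of the second set, as log2(median RPKM + 1), in oocytes and cumulus cells for the 4 growth factors, 14 receptors and 8 SMADs. Bars start at 0. The growth factors have the longer bar in oocytes, Bmpr2 and Tgfbr1 have it in cumulus cells, and Smad3 has it in oocytes (92.6 RPKM against 15.2 RPKM).

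Between CR and middle oocytes 4 of 14 receptors were called higher by edgeR and 0 lower, namely Acvr1 (0.94), Tgfbr1 (0.88), Bmpr2 (0.48) and Bmpr1b (0.35), of which Acvr1 and Tgfbr1 were still called with the GC and length trend removed (0.89 and 0.55). Of 14 response genes tested 2 were called higher, Ptgs2 (1.90) and the FGF-responsive factor gene Etv5 (1.21, adjusted p 0.0034 by edgeR), both also with the trend removed. No SMAD, antagonist or other ligand was called. The median over the receptors was 0.02, beside -0.01 over all genes, of which 4.07% were called higher and 3.54% lower. Of 13 oocyte markers 3 were called lower, Uchl1 (-0.48), Mos (-0.41) and H1f8 (-0.37), and with the trend removed none of these 3 was called (-0.14, -0.19 and -0.11). In cumulus cells without hyperovulation Grem1 (-1.84) and Fgfr4 (-1.56) were called lower by edgeR, where 0.863% of all genes were called.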

How the data were processed

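Single-oocyte and cumulus RamDA-seq libraries were quantified by the authors with HISAT2 2.0.5 on GRCm38 and featureCounts 1.5.1 with a GENCODE annotation. The authors deposited expected counts (estimated counts with multi-mapped reads included, of which 36.8% and 35.1% of the values above 0 were not whole in the first and second set) and RPKM values. The deposited RPKM matched the counts within 0.1% for all member values of ad libitum libraries. Of the 160 member values of CR libraries only 12 (7.5%) matched. RPKM of the 4 members were therefore recomputed from the counts. For the receptors and other listed genes, RPKM are the deposited values of the second set, where all 742 member values matched. Gene symbols and coding sequence came from a later GENCODE release of the same build, promoters from a RefSeq table.

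Counts were summed per mouse label and rounded. A gene was kept if 5 or more libraries of the comparison held a count of it, and tested with edgeR 4.0.16 (R 4.3.3; TMM, quasi-likelihood, Benjamini-Hochberg at 5%), with separate fits per comparison. Oocytes and cumulus cells came from the same mice, as the labels show, and were compared with the mouse as a block. p-values measure the spread between mouse labels. Alternatives used DESeq2 1.42.0, RLE size factors, no filter, single libraries, all groups, covariates and leaving out each mouse. Removal of a spline trend with GC content and length, and leaving out cumulus libraries high in oocyte markers (over 1%), were chosen after the data were seen. Scripts were tested on simulated data with 200 changed genes. Marker lists are scaled so that the median library of their own cell type is 100%. The members and lists were chosen with earlier results of these data known. Named genes are the members, their receptors, up to 4 called genes in each direction of each list, and the 3 genes most like each member. A listed gene that the rule would name is not reported here. Python 3.11.15 with scipy 1.17.1 gave the exact tests and intervals.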

Additional observations from a re-analysis of the deposited data

Results flagged for a closer look

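A mouse far from the others was looked for in 42 sets of values per mouse label. Each set held the means of a member or the Bmp15 to Gdf9 ratio of summed counts. A set covered 1 group of 4 to 8 mouse labels of 1 cell type. Such a mouse was found in 0 of them, where chance alone gives about 1 in 20. Groups of under 4 mouse labels (young, old and CR) were not tested, nor were Bmp15 and Fgf8 in cumulus cells.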

How the results depend on the processing

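In CR against middle oocytes 2 members were called, and 0 with all deposited libraries and 0 with the GC and length trend removed, where the Bmp15 estimate also turned to -0.17. Leaving out each mouse gave 1 to 2 called members. In old against young oocytes it gave 0 to 3, with Gdf9 at -0.65 to 0.041. At 14 against 2 months 1 member (Fgf8) was called with libraries as units, none otherwise, and the cumulus marker covariate turned Gdf9 to -0.025 and Bmp15 to -0.037, while leaving out a mouse gave -0.0045 to 0.085 for Bmp15. Cumulus Gdf9 under CR was -0.12 without the libraries high in oocyte markers and -0.22 to 1.36 without each mouse, and cumulus Bmp6 without hyperovulation was -0.14 to 0.12. Tests of the Bmp15 to Gdf9 ratio called 0 to 1 comparisons (4 against 2 months without mouse 2mo2, -0.12, adjusted p 0.0323 by exact permutation). The cause was not tested. Without the mouse block, oocyte against cumulus called 4 members in each set, as with it. Where an arm kept 1 mouse, it was assumed to vary like the others.

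Counts over all genes moved more. CR against middle oocytes gave 2061 genes, 7552 with libraries as units, 3478 by DESeq2, 4 with all deposited libraries and 685 to 3417 without each mouse. Old against young oocytes gave 0, 1635 with libraries, 27 by DESeq2, 547 without the filter, 232 with libraries and the covariate, and 4516 without Old3. Oocytes at 14 against 2 months gave 43, 224 with libraries, 164 by DESeq2, 99 without the filter and 72 with the name prefix. Cumulus cells without hyperovulation gave 223, 3090 with libraries, 717 by DESeq2, 615 with the name prefix, 535 with all groups in 1 fit and 398 with the trend removed. Cumulus cells under CR gave 0, 903 with libraries and 186 by DESeq2. With RLE size factors the all-gene median of oocyte against cumulus was -0.36 in the first and -0.39 in the second set. Member values not given singly (38) had 588 settings, 68 of them of opposite sign and 0 called. Oocyte against cumulus with complexes as units, and without each mouse in the second set, were not run. Depth limits Fgf8 and Bmp15 in cumulus cells, where most libraries hold 0 counts.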
